A study of Homo sapiens with 6 samples.

Results

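The cyclins, the cyclin-dependent kinases (CDKs), their inhibitors and the network that links E2F transcription factors to the retinoblastoma protein RB were followed in TC32, a cell line from Ewing sarcoma, a tumour of bone and soft tissue in children and young adults. The group held 43 genes, chosen by name, out of 26931 gene symbols in the deposited tables, and each of the 43 was found on a single row. All cells were TC32 cells that had received an siRNA 48 h before RNA was taken: siEWSR1 against EWSR1, siFLI1 against FLI1, or the control siRNA siNeg, with 2 libraries per siRNA and 6 in all. EWSR1 and FLI1 are the genes joined in the EWS-FLI1 fusion of this tumour, so either siRNA may reach the fusion transcript as well as the normal transcript of its gene. No source used here gives the region that each siRNA matches. The study is of 1 cell line, and the labels do not state that the libraries of a group are separate cultures. The p-values therefore reflect just the spread among these libraries, part or all of which may be technical. Levels are FPKM, fragments scaled to transcript length and library size by the authors, and can be set side by side between genes because they are per length. They are levels of RNA, and no protein level was used here.

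A cell enters division when D-type cyclins bind CDK4 or CDK6 and start to phosphorylate RB and its relatives RBL1 (p107) and RBL2 (p130). Phosphorylated pocket proteins release E2F factors, which dimerise with a DP protein and switch on genes for DNA replication, among them the E-type cyclins that activate CDK2. Later, the LIN9 and LIN54 subunits of the MuvB complex join first MYBL2 and then FOXM1 to raise B cyclins, CDK1 and other genes of G2 and mitosis. In resting cells MuvB instead joins RBL2 or RBL1 with E2F4 or E2F5 in the repressive DREAM complex, which binds cell cycle homology regions (CHR) and works with CCAAT boxes bound by NF-Y. CDK inhibitors of the CIP/KIP class, such as p21 from CDKN1A, and of the INK4 class act as brakes. In Ewing sarcoma cells CCND1 is known as a gene that depends on the fusion, and CDKN1A as one that the fusion holds down.

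The promoters below are those of genes on which the results turn: 3 genes of mitotic entry that were lower with each siRNA, an E2F gene with E2F matches, and the inhibitor gene that was higher. They were read from RefSeq on GRCh38.p14, from 250 bases before to 50 after the first listed start, 5′ to 3′ along the gene. Capitals mark matches to 3 motifs, each searched on both strands, and no match printed here overlaps another. They are the CCAAT box, the CHR motif spelled as TTTGAA or else as TTCGAA, and the E2F motif in the versions TTTCCCGC, TTTCGCGC, TTTGCCGC and TTTGGCGC.
CCNB2: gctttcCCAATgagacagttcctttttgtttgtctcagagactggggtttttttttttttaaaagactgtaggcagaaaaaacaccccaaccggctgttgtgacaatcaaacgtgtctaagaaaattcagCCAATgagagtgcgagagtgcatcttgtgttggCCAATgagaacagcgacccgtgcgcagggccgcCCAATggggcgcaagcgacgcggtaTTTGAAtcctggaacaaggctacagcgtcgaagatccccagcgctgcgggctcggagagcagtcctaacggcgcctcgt
CCNB1: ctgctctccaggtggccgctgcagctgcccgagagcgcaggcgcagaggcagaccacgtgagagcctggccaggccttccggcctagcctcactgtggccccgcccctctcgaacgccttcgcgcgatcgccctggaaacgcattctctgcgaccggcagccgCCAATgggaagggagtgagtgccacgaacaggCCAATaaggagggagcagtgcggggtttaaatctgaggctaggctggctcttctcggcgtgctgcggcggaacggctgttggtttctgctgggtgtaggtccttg
CDK1: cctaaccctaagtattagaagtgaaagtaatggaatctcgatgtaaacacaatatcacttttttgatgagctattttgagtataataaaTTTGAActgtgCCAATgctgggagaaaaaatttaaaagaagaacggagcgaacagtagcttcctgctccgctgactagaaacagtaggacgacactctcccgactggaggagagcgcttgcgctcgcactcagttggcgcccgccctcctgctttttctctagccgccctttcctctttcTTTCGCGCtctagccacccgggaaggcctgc
E2F1: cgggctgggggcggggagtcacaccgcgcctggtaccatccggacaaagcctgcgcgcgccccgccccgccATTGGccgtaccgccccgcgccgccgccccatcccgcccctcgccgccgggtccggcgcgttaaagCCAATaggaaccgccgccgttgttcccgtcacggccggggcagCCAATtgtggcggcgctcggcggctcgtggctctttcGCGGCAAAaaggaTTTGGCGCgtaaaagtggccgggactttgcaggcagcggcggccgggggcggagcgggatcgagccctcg
CDKN1A: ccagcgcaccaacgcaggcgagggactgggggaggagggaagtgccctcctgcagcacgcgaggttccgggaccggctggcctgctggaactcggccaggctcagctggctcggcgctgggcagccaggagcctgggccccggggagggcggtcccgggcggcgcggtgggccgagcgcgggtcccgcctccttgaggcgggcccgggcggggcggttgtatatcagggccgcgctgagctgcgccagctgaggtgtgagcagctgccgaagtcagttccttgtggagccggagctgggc
CCNB2 lies at chr15:59104896-59105195 on the plus strand, CCNB1 at chr5:69166900-69167199 on the plus strand and CDK1 at chr10:60778081-60778380 on the plus strand. E2F1 lies at chr20:33686336-33686635 on the minus strand and CDKN1A at chr6:36678464-36678763 on the plus strand. In the CCNB2 promoter, 4 CCAAT boxes were found, the last 3 of them spaced 33 bases apart, followed by a CHR match 29 bases before the start. The CCNB1 promoter held 2 CCAAT boxes 32 bases apart. CDK1 has 2 listed starts, and the promoter printed for the first held a CHR match, a CCAAT box and an E2F match. In the E2F1 promoter, E2F matches stood 33 and 20 bases before the start, on opposite strands. None of these letters was in the CDKN1A window, which says nothing on the factors that act there.

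Over the whole group, 35 of the 43 genes were matched in the promoter table, by symbol, with 56 listed starts between them. CHR letters were found at a start of 11 of the 35 genes (31.4%), against 15.4% of 9668 matched genes tested and 19.5% of all 27305 genes of the table. CCAAT was found for 19 genes (54.3%), against 43.5% of the tested genes and 39.7% of the table. E2F letters were found for 7 genes (20%), CDC25A, CDK1, RBL1, E2F1, E2F2, E2F3 and TFDP1, against 6.8% of the tested genes and 4.0% of the table. Among the 8 matched genes that were at least 2-fold lower with each siRNA, all 8 (CCNA2, CCNB1, CCNB2, CCNF, CDK1, CDC25C, CDKN2D and CDKN3) held CCAAT, 5 held CHR letters and CDK1 alone held E2F letters. In the shorter window, from 100 bases before to 50 after the start, 6 of these 8 held CCAAT and 4 held CHR letters, against 29.5% and 6.8% of the tested genes. In the full window, 14 of all 19 matched genes called lower with both siRNAs, the 8 included, held CCAAT (73.7%). CHR letters were held by 9 of the 19 (47.4%) and E2F letters by 4 (21.1%), CDK1, RBL1, E2F1 and E2F2. In that window, 3 of the 6 matched genes higher with each siRNA held CCAAT, 2 held CHR letters and 1 held E2F letters. Among the 16 matched genes not called lower with both siRNAs, those 6 included, 5 held CCAAT, 2 CHR letters and 3 E2F letters. The tandem GGAA pair GGAAGGAA, a minimal form of the repeats that EWS-FLI1 binds, was found for E2F3 alone, 1 of 35 genes (2.9%), against 4.8% of tested genes and 4.5% of the table. These are letter matches in short windows, with no test, and genes with more listed starts had more chances of a match. CCND1, CCND2, CCNE2, CDK2, WEE1, E2F5, E2F8 and FOXM1 were not matched.

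FPKM files give no fragment counts, but the width of the deposited intervals implies similar depths, from 15159073 to 16298374 fragments per library. EWSR1 stood at 34.6 and 32.3 FPKM with siEWSR1, 51.2 and 50.2 with siFLI1, and 46.5 and 47.2 with siNeg, and FLI1 at 10.4 and 10.6, 8.98 and 8.56, and 10.9 in each siNeg library. Each targeted gene was thus lower with its own siRNA than with siNeg, by 0.48 (EWSR1) and 0.29 (FLI1) on the log2 scale (limma, adjusted p = 0.000444 and 0.00423). The 6 Ewing markers CD99, NKX2-2, NR0B1, STEAP1, PRKCB and BCL11B were above 1 FPKM in every library, with a summed level of 372.0 to 449.7 FPKM with siEWSR1, 407.6 to 437.5 with siFLI1 and 661.6 to 692.3 with siNeg. Of the 4 fibroblast markers, COL1A1 and PDGFRA carried a sum of 109.7 to 110.5 FPKM with siEWSR1, 143.9 to 155.8 with siFLI1 and 7.24 to 8.42 with siNeg, while DCN and LUM stayed at or under 0.70. Blood markers summed to at most 0.594 FPKM and endothelial markers to at most 0.941, with PTPRC, CD3E and VWF at or near 0, and KRT18 carried nearly all of the epithelial sum of 21.6 to 28.5 FPKM. The part of these marker changes in the results was not tested.

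With siEWSR1, 26 of the 40 tested genes of the group fell and 7 rose against siNeg, and with siFLI1 25 fell and 7 rose (limma on log2(FPKM + 0.5), Benjamini-Hochberg adjusted p under 0.05 over 13043 genes, the threshold for a gene to be called). The genes that fell at least 2-fold were CCND1, CCNA2, CCNB1, CCNB2, CCNF, CDK1, CDC25C, CDKN2D, CDKN3 and E2F5, with either siRNA, and the gene that rose most was CDKN1A. These comparisons use the same siNeg libraries, so their likeness is not independent. In bulk RNA, fewer cycling cells and less RNA per cell cannot be told apart.

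Across all 13043 genes, 64.2% were called with siEWSR1, 33.2% higher and 31% lower, and 65.3% with siFLI1, 35.7% higher and 29.6% lower. A call in itself was therefore common, and the 26 and 25 lower genes of 40 are to be read beside the 31% and 29.6% of all genes. At least 2-fold lower were 10 of 40 genes with siEWSR1 and 10 with siFLI1, against 4.59% of all genes in each comparison. At least 2-fold higher were CDKN1A and CDK6 with siEWSR1 and CDKN1A with siFLI1, against 7.91% and 9.32% of all genes. The median log2 change of the group was -0.56 with siEWSR1 and -0.60 with siFLI1, beside 0.01 and 0.04 over all genes tested. Both siEWSR1 libraries lay below both siNeg libraries for 28 of the 40 genes (40.7% of all genes) and above for 10 (42.6%). Both siFLI1 libraries lay below both siNeg libraries for 26 (39.1%) and above for 12 (45.6%). With 2 libraries against 2, an exact permutation test of a single value cannot go below a two-sided p of 0.333, so calls rest on the fit across all genes.

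CCND2, CDKN2A and CDKN2B did not reach 1 FPKM in 2 libraries and were left out by this filter on low values. A fit with no filter, over 21935 genes, gave CCND2 as lower with either siRNA (log2 change -0.18 and -0.16, limma, adjusted p = 0.0113 and 0.0159). CDK6 passed that filter only through the siEWSR1 libraries, where it was highest, so its call follows in part from the filter and adds no support to the counts. Folds below are of FPKM + 0.5, which understates the change of low genes such as CDK6, LIN54 and CDKN2D.

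**Figure D1:**
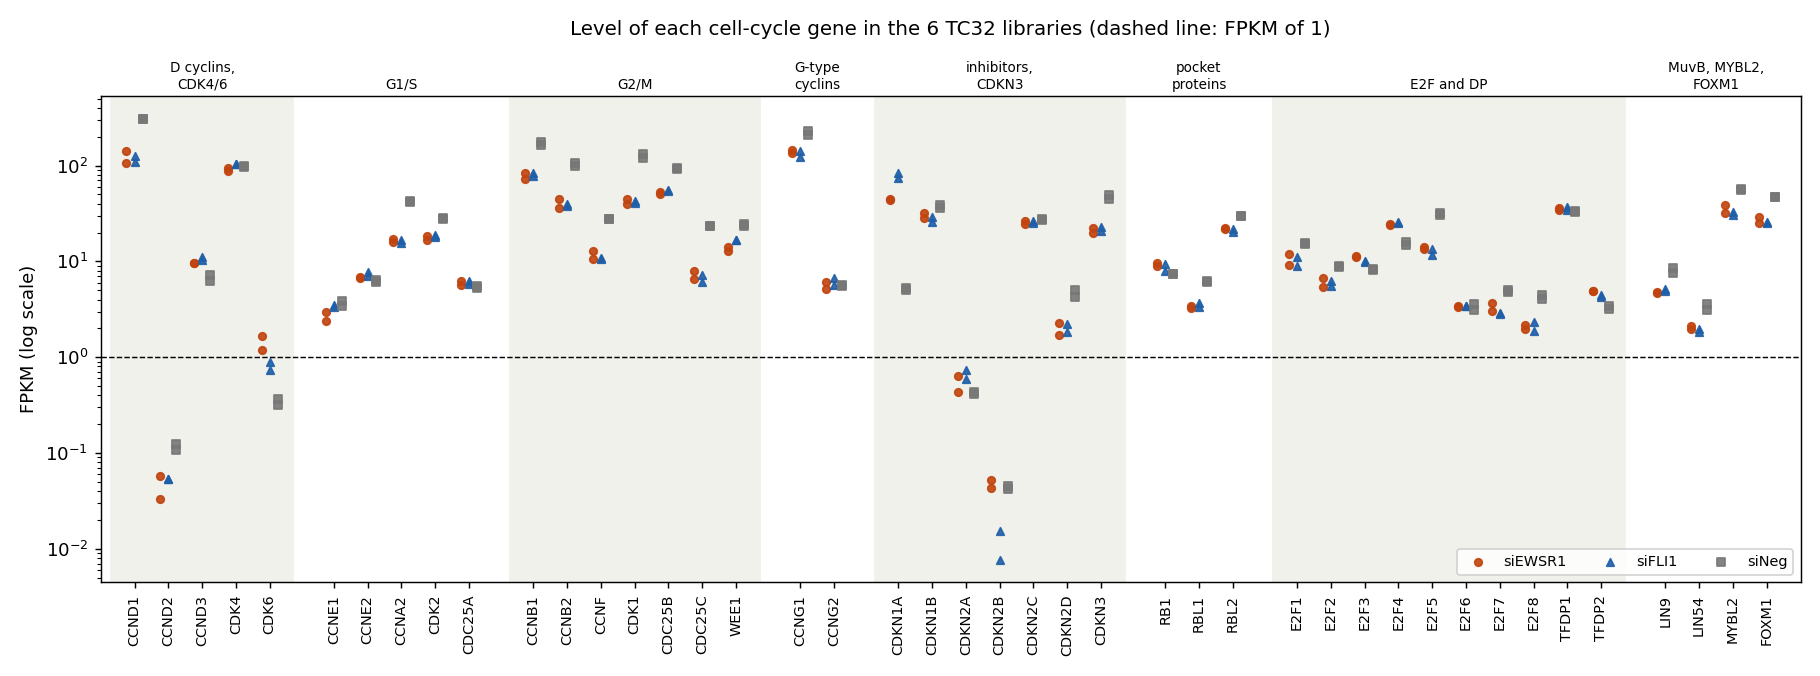
FPKM (log axis) of all 43 genes in each of the 6 libraries, grouped by role, with siEWSR1 as circles, siFLI1 as triangles and siNeg as squares; the dashed line is 1 FPKM. CCND1 stands at 304 and 309.9 FPKM with siNeg and CDKN2B under 0.06 in every library, and for the G2/M genes the siNeg squares lie above the circles and triangles.

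**Figure D2:**
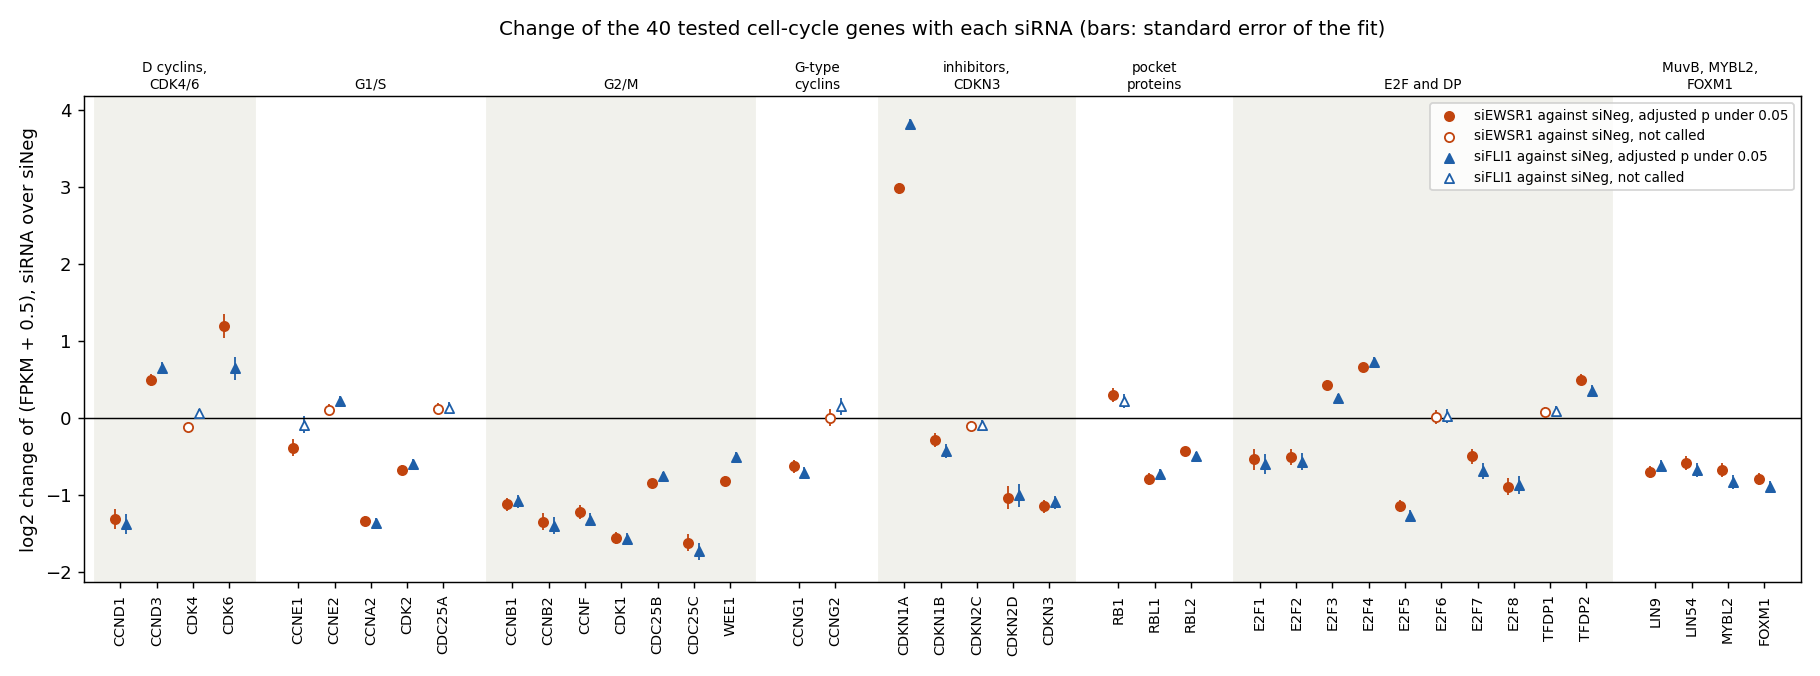
Log2 change of (FPKM + 0.5) with siEWSR1 (circles) and siFLI1 (triangles) over siNeg for the 40 tested genes, with bars of 1 standard error of the fit; filled points had an adjusted p under 0.05. CDKN1A stands at 2.99 and 3.82, all 7 G2/M genes lie below 0, and the E2F and DP factors lie on both sides; the siFLI1 point of CDK6 turns to -0.20 with quantile normalization.

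Among the D cyclins and their kinases, CCND1 fell and CCND3 rose with either siRNA, while CDK4 was not called. CCND1, the cyclin D1 gene (hg19, chromosome 11, 69455873 to 69469242), stood at 141 and 107 FPKM with siEWSR1, 126 and 109 with siFLI1, and 309.9 and 304 with siNeg. Neither siRNA group overlapped siNeg, and the 2 libraries of each siRNA differed more from each other than the siNeg libraries did. The log2 change of CCND1 was -1.32 ± 0.13 with siEWSR1 (SE, limma, adjusted p = 0.000252) and -1.38 ± 0.13 with siFLI1 (adjusted p = 0.000181), which are falls of 2.49-fold and 2.61-fold. CCND3, the cyclin D3 gene, stood at 9.66 and 9.53 FPKM with siEWSR1, 10.4 and 11.1 with siFLI1, and 6.23 and 7.14 with siNeg, for log2 changes of 0.49 and 0.65 (limma, adjusted p = 0.00184 and 0.000505). By RNA level, CCND1 remained the main D cyclin gene in every library. It held 93.6% and 91.8% of the summed D cyclin FPKM with siEWSR1, 92.3% and 90.7% with siFLI1, and 98.0% and 97.7% with siNeg. The summed level of the 3 D cyclin genes was 150.5 and 117 FPKM with siEWSR1, 137 and 120.4 with siFLI1, and 316 and 312 with siNeg. CCND2, the cyclin D2 gene, lay at 0.0331 to 0.0573 FPKM with siEWSR1 and siFLI1 and at 0.125 and 0.109 with siNeg, and was not tested.

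CDK4, the more abundant kinase partner of D cyclins, stood at 94.0 and 88.0 FPKM with siEWSR1, 103 in each siFLI1 library, and 99.5 and 97.2 with siNeg. Its log2 changes of -0.11 with siEWSR1 (95% interval -0.24 to 0.02) and 0.07 with siFLI1 (-0.06 to 0.20) were not called (limma, adjusted p = 0.104 and 0.287). CDK4 was called lower with siEWSR1 after equal median scaling (-0.14, adjusted p = 0.0359) or without siEWSR1 replicate 1 (-0.16, adjusted p = 0.0464), and higher with siFLI1 after quantile normalization (0.19, adjusted p = 0.00976), so no direction is given for it. CDK4 overlaps TSPAN31, which lay at 11.1 to 17.6 FPKM, and without strand information their reads cannot be told apart. CDK6, the other kinase of this pair, stood at 1.20 and 1.68 FPKM with siEWSR1, 0.737 and 0.8999 with siFLI1, and 0.314 and 0.368 with siNeg, so that no groups overlapped. CDK6 rose by 1.20 ± 0.15 on the log2 scale with siEWSR1 (limma, adjusted p = 0.000704). With siFLI1 the log2 change of CDK6 was 0.65 ± 0.15 (adjusted p = 0.00971), but it was -0.20 with quantile normalization and missed the threshold without siFLI1 replicate 2 (0.56, adjusted p = 0.0594) or siNeg replicate 1 (0.60, adjusted p = 0.055). Even at its highest CDK6 held 1.9% of the summed CDK4 and CDK6 level, against 0.4% at most with siNeg.

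At the step into S phase, CCNA2 and CDK2 fell with either siRNA. Each of the E cyclin genes was called with 1 siRNA only, and CDC25A with neither. CCNA2, the cyclin A2 gene, which serves S phase and mitotic entry, stood at 17.1 and 15.9 FPKM with siEWSR1, 15.5 and 16.7 with siFLI1, and 43.03 and 41.5 with siNeg. The siRNA libraries overlapped each other and lay well under both siNeg libraries. CCNA2 fell by 1.33 ± 0.07 on the log2 scale with siEWSR1 (limma, adjusted p = 1.81e-05) and by 1.37 ± 0.07 with siFLI1 (adjusted p = 1.32e-05), or 2.52-fold and 2.58-fold. CCNA2 overlaps EXOSC9, an exosome subunit gene that was itself at 17.6 to 20.1 FPKM with the siRNAs and at 29.2 and 29.6 with siNeg, and the part of shared reads was not tested. CDK2, the kinase of cyclins E and A, stood at 18.4 and 16.7 FPKM with siEWSR1, 19.0 and 17.9 with siFLI1, and 28.7 and 27.9 with siNeg, and fell by 0.67 and 0.60 on the log2 scale (limma, adjusted p = 0.000264 and 0.000371).

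CCNE1 and CCNE2 encode the E cyclins, the CDK2 partners that act first. CCNE1 stood at 2.41 and 2.97 FPKM with siEWSR1, 3.50 and 3.33 with siFLI1, and 3.43 and 3.90 with siNeg. It was called lower with siEWSR1 (-0.39 ± 0.11, limma, adjusted p = 0.02) and not with siFLI1 (-0.09, adjusted p = 0.513), and the siEWSR1 call was lost without siEWSR1 replicate 1 (adjusted p = 0.0808) or siNeg replicate 2 (adjusted p = 0.109). CCNE2 stood at 6.73 and 6.82 FPKM with siEWSR1, 7.02 and 7.75 with siFLI1, and 6.38 and 6.13 with siNeg. It was called higher with siFLI1 (0.22 ± 0.07, limma, adjusted p = 0.0293) and not with siEWSR1 (0.11, adjusted p = 0.219), and leaving out any of 3 libraries ended the siFLI1 call: siFLI1 replicate 2 (adjusted p = 0.152), siNeg replicate 1 (0.074) and siNeg replicate 2 (0.13). CCNE2 overlaps INTS8, which lay at 27.96 to 40.4 FPKM, several times the level of CCNE2. CDC25A, the phosphatase that activates CDK2, lay at 5.29 to 6.24 FPKM in all 6 libraries and was not called.

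All 7 genes of mitotic entry fell with either siRNA, beside 31% of all genes with siEWSR1 and 29.6% with siFLI1. At least 2-fold lower were 5 of the 7, against 4.59% of all genes in each comparison. Their median log2 changes were -1.22 for siEWSR1 and -1.32 for siFLI1. CDK1, the kinase that drives mitosis (hg19, chromosome 10, 62538089 to 62554611), stood at 45.0 and 40.05 FPKM with siEWSR1, 42.7 and 41.0 with siFLI1, and 132 and 120.0 with siNeg. It fell by 1.56 ± 0.08 on the log2 scale with siEWSR1 (limma, adjusted p = 1.82e-05) and by 1.58 ± 0.08 with siFLI1 (adjusted p = 1.39e-05), or 2.94-fold and 2.98-fold. The libraries of each siRNA lay far closer to each other than to those of siNeg. CCNB1, the cyclin B1 gene, stood at 84.4 and 72.2 FPKM with siEWSR1, 83.3 and 77.1 with siFLI1, and 176 and 166 with siNeg, a fall of 2.18-fold and 2.12-fold (limma, adjusted p = 9e-05 and 8.89e-05). CCNB2, the cyclin B2 gene, stood at 44.7 and 35.7 FPKM with siEWSR1, 39.4 and 37.6 with siFLI1, and 106 and 98.5 with siNeg, a fall of 2.54-fold and 2.64-fold (limma, adjusted p = 9.85e-05 and 7.3e-05). Together the B cyclins summed to 129 and 108 FPKM with siEWSR1, 123 and 115 with siFLI1, and 282 and 264 with siNeg.

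The phosphatases of the CDC25 family remove the phosphate that WEE1 places on CDK1. CDC25C, the phosphatase that acts at mitotic entry, stood at 8.01 and 6.53 FPKM with siEWSR1, 7.20 and 6.13 with siFLI1, and 23.4 and 23.2 with siNeg. Its log2 changes of -1.62 ± 0.11 and -1.74 ± 0.11 (limma, adjusted p = 5.95e-05 and 3.83e-05) were the lowest of the 40 tested genes with either siRNA. CDC25C overlaps FAM53C, which lay at 20.5 to 22.3 FPKM over all libraries, and the part of shared reads was not tested. CDC25B, the most abundant of the family, stood at 53.0 and 49.98 FPKM with siEWSR1, 56.0 and 53.8 with siFLI1, and 92.3 and 93.9 with siNeg, and fell 1.80-fold and 1.69-fold (limma, adjusted p = 4.49e-05 and 5.83e-05). The share of CDC25A, which was not called, in the summed CDC25 level was 9.3% and 9.1% with siEWSR1 and 8.9% and 8.8% with siFLI1, against 4.4% and 4.5% with siNeg. WEE1, the kinase that restrains CDK1, stood at 14.1 and 12.7 FPKM with siEWSR1, 16.8 and 16.9 with siFLI1, and 24.4 and 23.7 with siNeg. WEE1 fell with either siRNA, by 0.82 ± 0.07 on the log2 scale with siEWSR1 and 0.50 ± 0.07 with siFLI1 (limma, adjusted p = 9.74e-05 and 0.000674). CCNF, which encodes an F-box cyclin that marks proteins for degradation, stood at 12.7 and 10.5 FPKM with siEWSR1, 10.9 and 10.6 with siFLI1, and 27.5 and 27.7 with siNeg, and fell 2.33-fold and 2.50-fold.

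Of the G-type cyclins, CCNG1, a p53 target, fell and CCNG2 was not called. CCNG1 stood at 136 and 147 FPKM with siEWSR1, 124 and 142 with siFLI1, and 228 and 210.1 with siNeg, a fall of 1.54-fold and 1.64-fold (limma, adjusted p = 0.000849 and 0.000449). CDKN1A, another known p53 target, moved in the opposite direction to CCNG1. No list of p53 targets was followed here, and the activity of p53 was not tested. CCNG2, which is linked to withdrawal from the cycle, lay at 5.13 to 6.79 FPKM over all 6 libraries.

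Among the inhibitors, CDKN1A rose with either siRNA, CDKN1B and CDKN2D fell, and CDKN2C was not called. CDKN1A (hg19, chromosome 6, 36644237 to 36655116), which encodes p21, stood at 43.3 and 44.9 FPKM with siEWSR1, 75.0 and 83.7 with siFLI1, and 5.02 and 5.24 with siNeg. The 3 groups did not overlap, with siNeg lowest and siFLI1 highest. CDKN1A rose by 2.99 ± 0.07 on the log2 scale with siEWSR1 (limma, adjusted p = 2.09e-06) and by 3.82 ± 0.07 with siFLI1 (adjusted p = 8.77e-07), or 7.92-fold and 14.2-fold. Its log2 change stayed between 2.88 and 3.08 with siEWSR1 and between 3.71 and 3.92 with siFLI1 over the 18 alternatives run. CDKN1B, which encodes p27, stood at 28.6 and 32.3 FPKM with siEWSR1, 25.7 and 29.2 with siFLI1, and 35.9 and 38.4 with siNeg. The log2 change of CDKN1B was -0.43 ± 0.09 with siFLI1 (limma, adjusted p = 0.00545) and -0.28 ± 0.09 with siEWSR1 (adjusted p = 0.0296). Leaving out siEWSR1 replicate 1 (adjusted p = 0.11) or either of the siNeg libraries (0.0598 and 0.14) ended the siEWSR1 call of CDKN1B.

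The balance between the CIP/KIP inhibitors was therefore different in the siRNA libraries. CDKN1A held 60.2% and 58.1% of the summed CDKN1A and CDKN1B level with siEWSR1 and 74.5% and 74.1% with siFLI1, against 12.3% and 12.0% with siNeg. Set against the kinase it binds, the FPKM ratio of CDKN1A to CDK2 was 2.35 and 2.69 with siEWSR1, 3.95 and 4.68 with siFLI1, and 0.175 and 0.188 with siNeg. Against CDK1 the ratio was 0.964 and 1.12 with siEWSR1, 1.76 and 2.04 with siFLI1, and 0.0381 and 0.0437 with siNeg. CDKN1C, the p57 gene and the remaining CIP/KIP gene, which is not in the group but in a wider list, stood at 16.3 and 13.7 FPKM with siEWSR1, 28.3 and 31.4 with siFLI1, and 1.61 and 2.24 with siNeg. It rose 6.40-fold and 12.6-fold (limma, adjusted p = 2.4e-05 and 6.99e-06), with the groups in the same order as for CDKN1A.

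**Figure D3:**
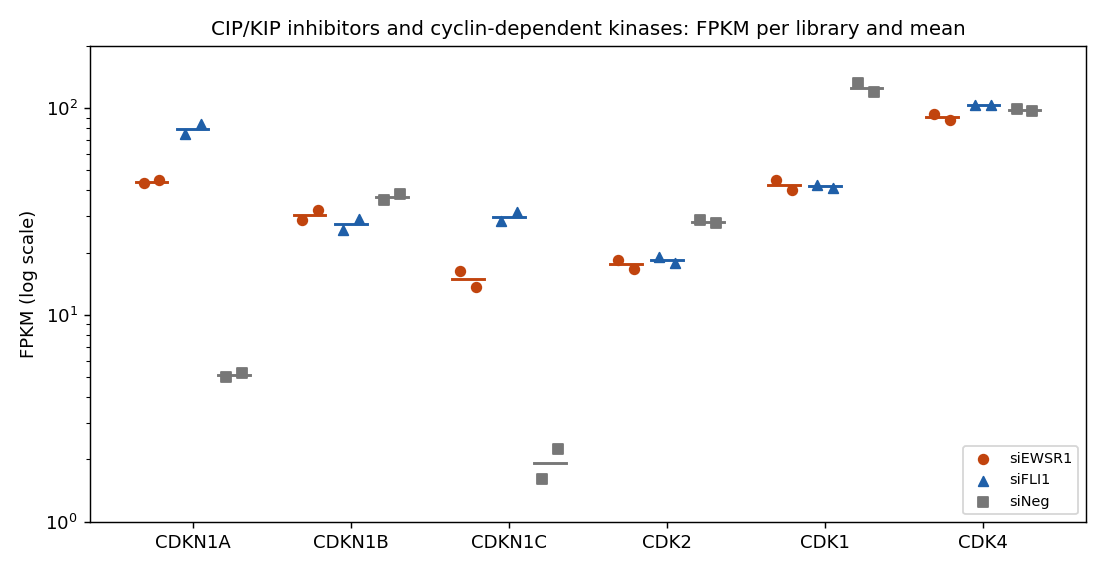
FPKM (log axis) of the CIP/KIP inhibitors CDKN1A, CDKN1B and CDKN1C and of the kinases CDK2, CDK1 and CDK4 in each library (points) with the mean of the 2 libraries (line), siEWSR1 left of siFLI1 and siNeg. CDKN1A goes above CDKN1B in the siRNA libraries (43.3 to 83.7 against 25.7 to 32.3 FPKM) and lies below it with siNeg, while CDK4 keeps to 88.0 to 103 FPKM.

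The INK4 inhibitors, which act on CDK4 and CDK6, were dominated by CDKN2C. CDKN2C, the p18 gene, stood at 24.6 and 26.5 FPKM with siEWSR1, 25.1 and 26.3 with siFLI1, and 27.3 and 27.5 with siNeg, and was not called (95% intervals of the log2 change -0.24 to 0.04 and -0.23 to 0.05). CDKN2D, the p19 gene, stood at 2.29 and 1.70 FPKM with siEWSR1, 1.85 and 2.25 with siFLI1, and 4.995 and 4.22 with siNeg, and fell 2.06-fold and 2.01-fold (limma, adjusted p = 0.00116 and 0.00128). The fall of CDKN2D took its share of the summed INK4 level to between 5.9% and 8.3% in the siRNA libraries, against 15.2% and 13.1% with siNeg. CDKN2A, which encodes p16 and p14ARF, lay at 0.414 to 0.734 FPKM in all 6 libraries, with deposited intervals between 0.185 and 1.05 that rest on an implied 12 to 22 fragments. CDKN2B, the p15 gene beside it, lay at or under 0.0522 FPKM, from an implied 0 to 6 fragments, less than its antisense gene CDKN2B-AS1 at 1.13 to 1.79 FPKM. Both were left out by the filter on low values. With no filter CDKN2A was called with neither siRNA (0.15 and 0.33, limma, adjusted p = 0.391 and 0.092), and CDKN2B with siFLI1 alone (-0.09, adjusted p = 0.0247), a call that rests on those few fragments. CDKN3, a phosphatase that acts on CDKs and is itself high in mitotic cells, stood at 22.1 and 19.8 FPKM with siEWSR1, 22.8 and 20.7 with siFLI1, and 49.6 and 44.6 with siNeg, and fell 2.22-fold and 2.14-fold (limma, adjusted p = 7.82e-05 and 8.05e-05).

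The pocket proteins moved apart. RBL1, the p107 gene, itself under E2F control, stood at 3.44 and 3.26 FPKM with siEWSR1, 3.37 and 3.65 with siFLI1, and 6.31 and 6.03 with siNeg, a fall of 1.73-fold and 1.66-fold (limma, adjusted p = 0.00019 and 0.000232). RBL2, the p130 gene and the most abundant of the family, stood at 22.4 and 21.8 FPKM with siEWSR1, 20.5 and 21.6 with siFLI1, and 30.0 and 29.8 with siNeg, a fall of 1.34-fold and 1.41-fold (limma, adjusted p = 0.000667 and 0.000325). RBL2 overlaps AKTIP, which lay at 3.41 to 3.79 FPKM in the siRNA libraries and at 5.62 and 4.97 with siNeg. RB1, which encodes RB itself, stood at 8.91 and 9.60 FPKM with siEWSR1, 8.002 and 9.49 with siFLI1, and 7.46 and 7.39 with siNeg. Both siRNA groups of RB1 lay above siNeg, but the call was not firm: the log2 change was 0.30 ± 0.09 with siEWSR1 (limma, adjusted p = 0.0252) and 0.22 ± 0.09 with siFLI1 (adjusted p = 0.0715). Leaving out siEWSR1 replicate 2 (adjusted p = 0.0964) or either of the siNeg libraries (0.0863 and 0.0916) ended the siEWSR1 call of RB1, and RB1 was called with siFLI1 without siFLI1 replicate 1 (0.33, adjusted p = 0.0207). RB1 contains LPAR6, a receptor gene at 2.39 to 3.48 FPKM in the siRNA libraries and at 1.21 and 1.37 with siNeg. RB1 held 25.6% and 27.7% of the summed pocket protein level with siEWSR1 and 25.1% and 27.3% with siFLI1, against 17% and 17.1% with siNeg.

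Within the E2F family, E2F3 and E2F4 rose, E2F1, E2F2, E2F5, E2F7 and E2F8 fell, and E2F6 was not called, with either siRNA. E2F4, which carries repression with RBL2 and has no strong activating role, stood at 24.2 and 24.8 FPKM with siEWSR1, 25.4 and 26.1 with siFLI1, and 14.8 and 15.9 with siNeg. It rose by 0.66 ± 0.06 on the log2 scale with siEWSR1 (limma, adjusted p = 0.000158) and by 0.73 ± 0.06 with siFLI1 (adjusted p = 9.34e-05). E2F5, the other E2F of the repressive complex, stood at 13.6 and 14.1 FPKM with siEWSR1, 11.7 and 13.5 with siFLI1, and 32.01 and 30.2 with siNeg, a fall of 2.20-fold and 2.42-fold (limma, adjusted p = 6.17e-05 and 3.32e-05). E2F5 overlaps C8orf59, and the part of shared reads was not tested. C8orf59 lay at 48.1 and 45.0 FPKM with siEWSR1, 56.0 and 52.6 with siFLI1, and 53.5 and 51.7 with siNeg. E2F4 was the highest of the 8 E2F genes in all 4 siRNA libraries, and E2F5 in both siNeg libraries. E2F4 held 31.4% and 33.9% of the summed E2F level with siEWSR1 and 34.8% and 36.1% with siFLI1, against 16.1% and 17.4% with siNeg. E2F5 held 17.7% and 19.2% with siEWSR1 and 16.0% and 18.7% with siFLI1, against 34.9% and 33.1% with siNeg.

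The activating E2Fs also parted. E2F1 stood at 11.8 and 9.25 FPKM with siEWSR1, 11.1 and 9.04 with siFLI1, and 15.2 and 15.7 with siNeg, and fell by 0.54 ± 0.13 with siEWSR1 (limma, adjusted p = 0.0125) and 0.60 ± 0.13 with siFLI1 (adjusted p = 0.00801) on the log2 scale. The siEWSR1 call of E2F1 was lost without siNeg replicate 2 (adjusted p = 0.0572). E2F2 stood at 6.79 and 5.47 FPKM with siEWSR1, 6.17 and 5.49 with siFLI1, and 8.80 and 8.97 with siNeg, a fall of 1.42-fold and 1.48-fold. In contrast E2F3 stood at 11.2 and 11.4 FPKM with siEWSR1, 10.0 and 9.84 with siFLI1, and 8.17 and 8.31 with siNeg, a rise of 1.35-fold and 1.19-fold (limma, adjusted p = 0.000669 and 0.00669). The summed level of E2F1, E2F2 and E2F3 was 29.8 and 26.2 FPKM with siEWSR1, 27.3 and 24.4 with siFLI1, and 32.1 and 33.0 with siNeg. In both siNeg libraries E2F1 and E2F2 were above E2F3, whereas in the siRNA libraries E2F3 was above E2F2, and E2F1 and E2F3 changed order between replicates. E2F7 and E2F8, the repressors that E2F1 induces and that act without a DP partner, were at 1.89 to 3.72 FPKM in the siRNA libraries and 4.10 to 5.06 with siNeg, and fell 1.41-fold and 1.61-fold (E2F7) and 1.86-fold and 1.83-fold (E2F8). E2F6, a repressor linked to polycomb, lay at 3.10 to 3.62 FPKM with no call (log2 changes of 0.01 and 0.03).

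**Figure D4:**
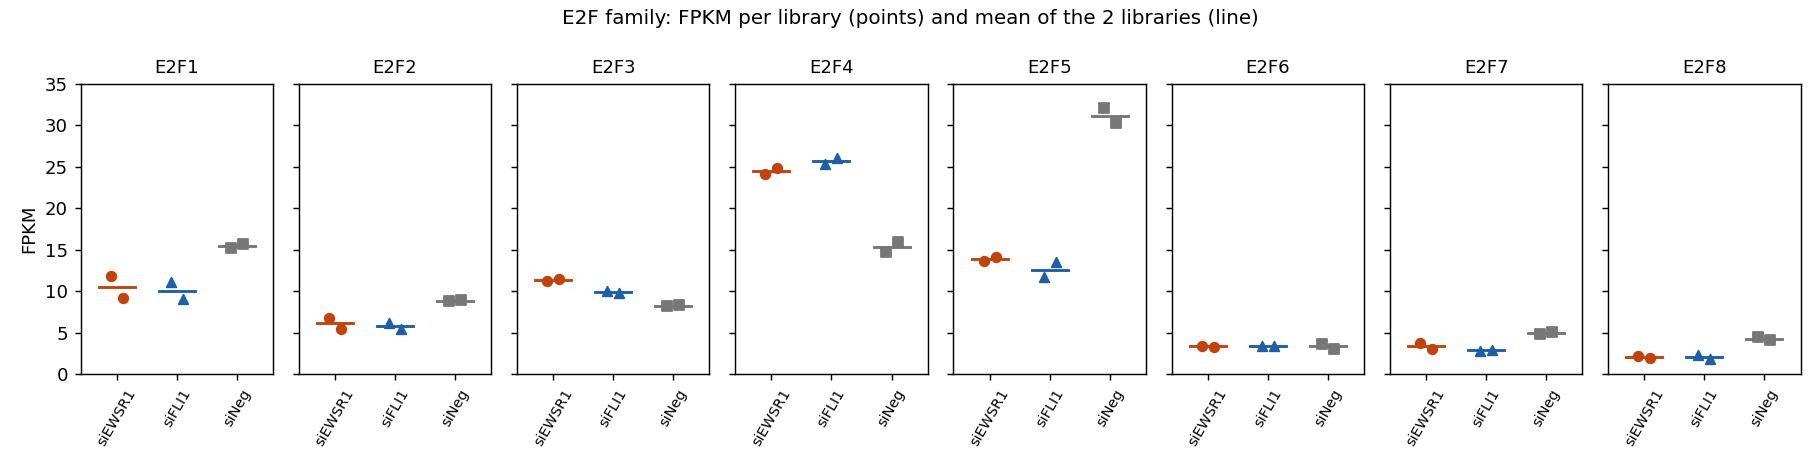
FPKM of E2F1 to E2F8 in each library (points) and the mean of the 2 libraries of a group (line), siEWSR1 left of siFLI1 and siNeg, on a common axis from 0. E2F4 reaches 24.2 to 26.1 FPKM in the siRNA libraries against 14.8 and 15.9 with siNeg, and E2F5 goes the other way, 11.7 to 14.1 against 32.01 and 30.2.

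Of the DP partners, TFDP2 rose with either siRNA and TFDP1 was not called in the main fit. TFDP1, the main partner, lay at 34.2 to 36.9 FPKM in the siRNA libraries and at 32.9 and 33.6 with siNeg and was not called, although quantile normalization gave a call with either siRNA (0.21, adjusted p = 0.0107 and 0.15, adjusted p = 0.034). TFDP2 stood at 4.91 in each siEWSR1 library, 4.30 and 4.49 with siFLI1, and 3.43 and 3.22 FPKM with siNeg, and rose 1.41-fold and 1.28-fold (limma, adjusted p = 0.000991 and 0.00428). The siFLI1 call of TFDP2 missed the threshold with quantile normalization (0.18, adjusted p = 0.0539). The 4 regulators that act with MuvB all fell. LIN9 lay at 4.67 to 5.19 FPKM in the siRNA libraries and at 8.51 and 7.61 with siNeg, and LIN54, the subunit that contacts CHR sites, at 1.83 to 2.13 FPKM and at 3.55 and 3.11, with falls of 1.63-fold and 1.55-fold (LIN9) and 1.5-fold and 1.601-fold (LIN54). MYBL2, the B-MYB gene, stood at 38.4 and 32.05 FPKM with siEWSR1, 32.8 and 30.2 with siFLI1, and 56.5 and 56.1 with siNeg, a fall of 1.597-fold and 1.78-fold (limma, adjusted p = 0.000891 and 0.00034). FOXM1 stood at 29.2 and 25.1 FPKM with siEWSR1, 25.6 and 24.9 with siFLI1, and 47.2 and 47.4 with siNeg, a fall of 1.73-fold and 1.86-fold (limma, adjusted p = 0.000234 and 0.000127). FOXM1 shares its locus with RHNO1, which lay at 16.6 to 18.6 FPKM in the siRNA libraries and at 34.5 and 33.1 with siNeg, so the reads of this pair cannot be told apart without strand. Among the tested genes that overlap no other gene, 19 were lower and 5 higher with siEWSR1, and 18 lower and 5 higher with siFLI1, an alternative added after the data were seen. It leaves out CDK4, CDK6, CCNE2, CCNA2, CCNF, CDC25C, RB1, RBL2, E2F2, E2F5 and FOXM1 of the 40 tested genes. Over all genes, 31% were lower and 33.2% higher with siEWSR1, and 29.6% and 35.7% with siFLI1.

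Genes known to be regulated by E2F and by MuvB were followed as wider lists. Of 36 genes known to be E2F-regulated in G1 and S phase, 29 fell and 0 rose with siEWSR1. With siFLI1, 30 fell and 0 rose. The median log2 changes were -0.61 and -0.58, beside 0.01 and 0.04 over all genes tested. Over all those genes, 31% fell and 33.2% rose with siEWSR1, and 29.6% fell and 35.7% rose with siFLI1. CDT1, a replication licensing factor, stood at 9.70 and 7.04 FPKM with siEWSR1, 9.21 and 9.18 with siFLI1, and 21.6 and 24.6 with siNeg, and PRIM1, a primase subunit, fell 2.53-fold and 2.38-fold. CDC6, SLBP, UHRF1, FEN1, UNG and CLSPN were called with neither siRNA, and MCM4 with siFLI1 alone; they are named after their values were seen. Of 36 genes of G2 and mitosis regulated by MYBL2, FOXM1 and DREAM, all 36 fell with either siRNA, with medians of -1.43 and -1.48. At least 2-fold lower were 32 with siEWSR1 and 36 with siFLI1, against 4.59% of all genes in each comparison. KIF2C, a kinesin that removes tubulin from microtubule ends, stood at 35.8 and 28.7 FPKM with siEWSR1, 34.2 and 30.5 with siFLI1, and 131 and 130.1 with siNeg, and NUF2, a kinetochore protein, fell 3.61-fold and 3.70-fold. The fall was thus larger at the median for the mitotic list than for the S phase list in each comparison, a difference that was not tested.

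The remaining cyclins and CDKs, many of which act in transcription, were called in both directions. The counts that follow are to be read beside all genes, of which 33.2% rose and 31% fell with siEWSR1 and 35.7% rose and 29.6% fell with siFLI1, and no direction of these lists is read from them. Of 14 tested other cyclins, 5 rose and 3 fell with siEWSR1, and 3 rose and 5 fell with siFLI1. CCNH, the partner of CDK7, fell 1.80-fold and 1.65-fold, and CCNL2, linked to splicing, rose 1.78-fold and 1.61-fold. CCNA1, an A cyclin known from the germ line, which fell 3.04-fold and 3.22-fold (limma, adjusted p = 0.000113 and 8.15e-05), and CCNJL, which rose 2.49-fold and 2.42-fold (adjusted p = 0.000148 for each), held the only calls of at least 2-fold in this list. Both lie under the mean of 5 FPKM set for naming by size of change, CCNA1 with up to 4.38 FPKM and CCNJL with up to 1.63 in any library, and are named after their values were seen. CCNJL, at 0.278 and 0.405 FPKM with siNeg, passed the filter on low values only through the siRNA libraries. Its call therefore follows in part from the filter and adds no support to the counts. Of 16 tested other CDKs, 5 rose and 4 fell with siEWSR1, and 5 rose and 6 fell with siFLI1. CDK14, which acts with cyclin Y in WNT signalling, fell 2.12-fold and 1.98-fold, and CDK18, a PCTAIRE kinase, rose 1.95-fold and 1.94-fold. Of 12 further inhibitors, activators and adaptors, 5 rose and 4 fell with siEWSR1, and 6 rose and 4 fell with siFLI1. CABLES1, an adaptor that binds CDKs, stood at 13.9 and 15.8 FPKM with siEWSR1, 12.4 and 13.2 with siFLI1, and 2.49 and 2.12 with siNeg, a rise of 5.47-fold and 4.74-fold (limma, adjusted p = 8.19e-06 and 8.62e-06), and the genes that fell were CKS1B and CKS2, which are CDK-binding subunits, MNAT1, an assembly factor for CDK7, and PKMYT1, a CDK1-inhibiting kinase. Of 4 other MuvB and DREAM genes, LIN52 alone was called, lower with either siRNA (1.44-fold and 1.52-fold). Of 14 genes that degrade cyclins or E2Fs, 5 rose and 7 fell with siEWSR1, and 3 rose and 6 fell with siFLI1, among them FBXO5, an inhibitor of the anaphase-promoting complex, which fell 1.61-fold and 1.69-fold, and BTRC, an F-box protein, which rose 1.40-fold and 1.46-fold.

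Set directly against each other, siEWSR1 and siFLI1 gave a single called gene among the 40, CDKN1A, which was lower with siEWSR1. Over all genes 3.86% were called, 0.79% higher and 3.07% lower with siEWSR1, and 0.046% and 0.199% were called at least 2-fold higher and lower, so the share in the group was near the background. CDKN1A stood at 43.3 and 44.9 FPKM with siEWSR1 against 75.0 and 83.7 with siFLI1, a log2 difference of -0.84 ± 0.07 (SE, limma, adjusted p = 0.00554, 95% interval -1.003 to -0.674), or 1.79-fold. The call was lost without siFLI1 replicate 2 (-0.76, adjusted p = 0.0771), and the log2 difference lay between -0.92 and -0.76 over 18 alternatives. CDKN1C of the wider inhibitor list differed the same way, 16.3 and 13.7 FPKM with siEWSR1 against 28.3 and 31.4 with siFLI1 (log2 difference -0.98 ± 0.14, limma, adjusted p = 0.0258). That call of CDKN1C was lost with no filter (-0.98, adjusted p = 0.0882) and without siEWSR1 replicate 2 (-0.86, adjusted p = 0.074), siFLI1 replicate 1 (-1.05, adjusted p = 0.107) or siFLI1 replicate 2 (-0.90, adjusted p = 0.192). WEE1, at 14.1 and 12.7 FPKM with siEWSR1 against 16.8 and 16.9 with siFLI1, missed the threshold (-0.32 ± 0.07, limma, adjusted p = 0.0514) and passed it under 5 of 18 alternatives, among them leaving out siEWSR1 replicate 1 (-0.39, adjusted p = 0.033).

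For the other 39 genes no difference between the siRNAs was called, and the intervals bound it. The 95% interval of the log2 difference lay within ±0.5 for 37 of the 39 and within ±1 for all 39. The widest gap was in CDK6, at 1.20 and 1.68 FPKM with siEWSR1 against 0.737 and 0.8999 with siFLI1, with a log2 difference of 0.55 (95% interval 0.18 to 0.92, limma, adjusted p = 0.099). At an unadjusted p under 0.05, CDK6 and E2F3 were higher and CDK4, CCNE1, WEE1 and CDKN1A lower with siEWSR1. For CDK1 the log2 difference was 0.02 (95% interval -0.16 to 0.20), for CCNB1 -0.04 (-0.25 to 0.17), for CCND1 0.07 (-0.25 to 0.38) and for E2F4 -0.07 (-0.21 to 0.07). Both siEWSR1 libraries lay above both siFLI1 libraries for 7 of the 40 genes, against 20.1% of all genes, and below for 9, against 32.9%. The median log2 difference of the group was 0.005, beside -0.03 over all genes.

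**Figure D5:**
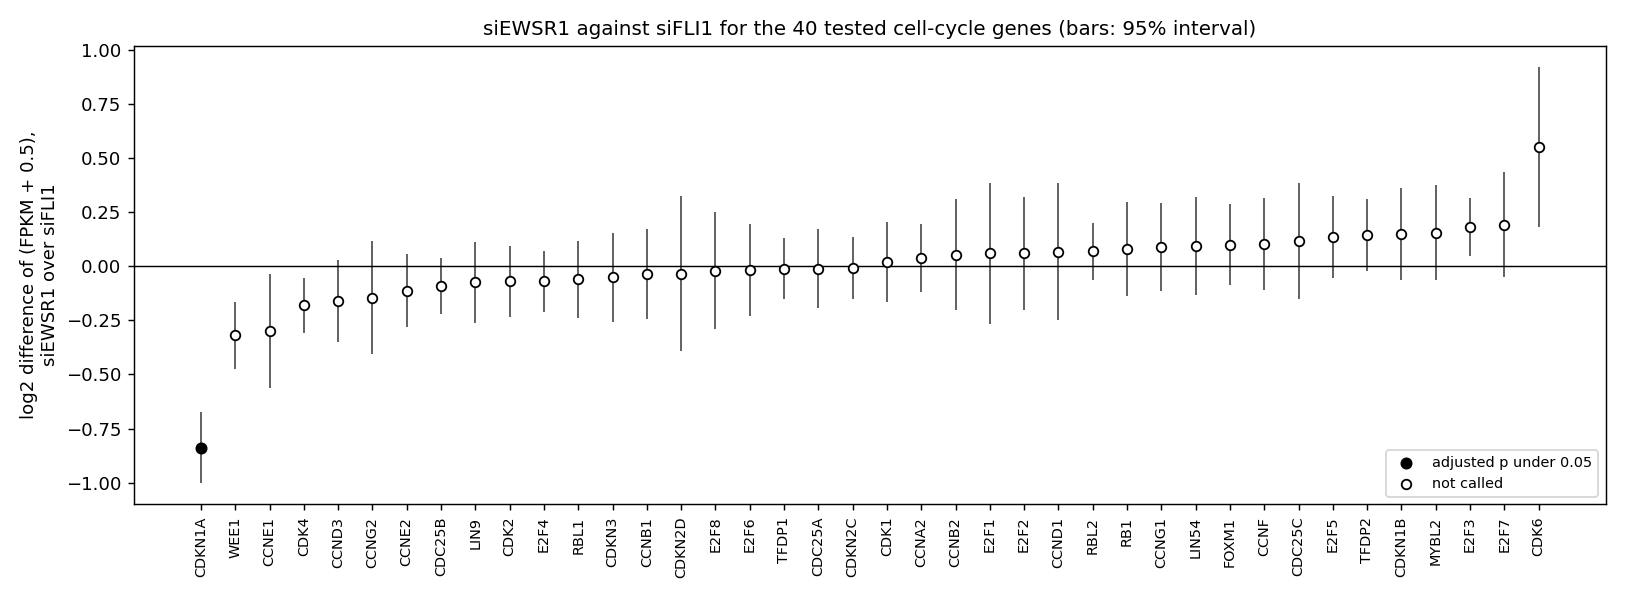
Log2 difference of (FPKM + 0.5), siEWSR1 over siFLI1, for the 40 tested genes in order of size, with bars of the 95% interval; the filled point had an adjusted p under 0.05. CDKN1A stands alone at -0.84, CDK6 is the highest at 0.55 with the longest bar, and most intervals cross 0.

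For each group, the genes with replicate 1 above replicate 2 were counted, and the counts are to be read beside the share of all genes. In the siEWSR1 group, replicate 1 was above replicate 2 for 26 of 40 genes, against 57.7% of all genes tested, and for 20 of the 25 genes called lower with each siRNA. The deposited 95% intervals of the 2 libraries were apart for 14 genes, among them CCND1, CCNB1, CCNB2, CDK1, E2F1, MYBL2 and FOXM1. The largest such gap was that of CCND1, 141 against 107 FPKM in replicates 1 and 2. In the siFLI1 group replicate 1 was higher for 18 of 40 genes, against 38.3% of all genes, and for 15 of those 25 lower genes. The intervals were apart for 8. In the siNeg group replicate 1 was higher for 23, against 52.2% of all genes, and for 18 of the same 25. The intervals were apart for 4. No share over all genes was taken for the interval counts, so they are not read as a trait of this group of genes. The spread between replicates entered the fit as replicate error.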

How the data were processed

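The deposited tables hold gene-level FPKM made by the authors, with lower and upper 95% bounds. Per the submitters' processing notes, the tools were TopHat2 2.0.13, Cufflinks and Cuffdiff, on hg19. For the annotation, kit and strand setting, nothing is given in the sources used here, and reads of overlapping or antisense genes cannot be told apart. Because FPKM scales to the library total, a few abundant RNAs can shift all other values. Rows were joined by gene symbol, and values of the 380 symbols on more than 1 row were summed. None of the 43 genes was among them, and 0 had a failed status. Depth was read from the deposited bounds, and counts were not recovered.

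The 13043 genes that reached an FPKM of 1 in 2 or more libraries were fitted on the log2(FPKM + 0.5) scale, using limma 3.58.1 (R 4.3.3), a variance trend and all 3 groups in 1 fit (3 residual and 3.39 prior degrees of freedom). P-values are two-sided and adjusted by Benjamini-Hochberg over all genes tested, with a threshold of 0.05, and ± gives the standard error. The fit was tested on simulated data. The samples enter by the siRNA in their labels. The alternatives were other pseudocounts, filters, scalings and variance models, a block on the replicate number, and leaving out each library.

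The genes and the wider lists were chosen with earlier results of these data known. Named by rule are called genes with a log2 change of at least 1 with either siRNA, genes called between the siRNAs, the highest gene of each family, and up to 2 called genes per wider list with the largest mean change among those whose highest group averaged 5 FPKM or more. Some genes that go against their list, and other single genes, are named beside them. In lists called in both directions, not every gene that goes against the list is named. Promoters are from RefSeq (GRCh38.p14), whose coordinates were not mixed with those of hg19. A planned comparison of protein sequences was not run here.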

Additional observations from a re-analysis of the deposited data

Results flagged for a closer look

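CDKN1A, the p21 gene, differed between the siRNAs against the fusion partners by a test of the difference itself: its log2 difference, siEWSR1 over siFLI1, was -0.839 (limma, adjusted p = 0.00554), with both siEWSR1 libraries (43.3 and 44.9 FPKM) below both siFLI1 libraries (75.0 and 83.7 FPKM). COL1A1, a fibroblast marker that was also higher with each siRNA, lay in the same order, at 101.8 and 99.0 FPKM with siEWSR1 and 134 and 144 FPKM with siFLI1. The part of that order, of the unequal change of the targeted genes and of siFLI1 replicate 2 in the CDKN1A difference was not tested, beyond the loss of the call without that library.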

How the results depend on the processing

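Over 709, 708 and 709 reruns of single genes, 693 kept direction and side of the threshold for siEWSR1 against siNeg, 695 for siFLI1 against siNeg and 703 for siEWSR1 against siFLI1, and 29 of 33 and 29 of 32 called genes of the group did so under every alternative run. The exceptions were CCNE1, CDKN1B, RB1 and E2F1 with siEWSR1, and CCNE2, TFDP2 and CDK6 with siFLI1, which lost the call in at least 1 setting. CDK6 with siFLI1 turned to -0.195 with quantile normalization; the cause was not tested. Calls were gained by CDK4 in 2 settings with siEWSR1 and 1 with siFLI1, by RB1 in 2 with siFLI1, by TFDP1 in 1 with each, and by WEE1 in 5 between the siRNAs. Counts over all genes called higher were 2518 with siEWSR1 and 2787 with siFLI1 at a mean FPKM of at least 5, where fewer genes were tested.

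For siEWSR1 against siFLI1, the count of lower genes in the group was 2 with a pseudocount of 1, a mean FPKM of at least 5, a robust variance trend or symbols on 1 row, and 0 to 2 when 1 library was left out. Lower calls over all genes (401) were 73 with no filter, 640 with a robust trend, 262 with the replicate block, 172 with only the 2 groups compared, and 1 to 621 when 1 library was left out. Higher calls (103) were 15, 185, 57 and 22 in the same settings, 209 with quantile normalization, and 3 to 107 when 1 library was left out. Lower calls in the wider lists (1) were 2 with a pseudocount of 1, a mean FPKM of at least 5, symbols on 1 row or the crossed block, 3 with a robust trend, 0 with no filter, and 0 to 2 when 1 library was left out. Higher calls there (0) were 1 with quantile normalization, a robust trend or the crossed block. The direct comparison therefore rests on few calls, and its genome-wide counts depend on single libraries.

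No strong shared shift of equal replicate numbers was seen: the replicate differences correlated at -0.137, -0.053 and 0.069 between groups over 13043 genes. The labels do not say whether libraries of equal number were handled together, and 2 libraries per group cannot settle it. The replicate block gave 4242 higher and 3948 lower genes with siEWSR1, 4530 and 3777 with siFLI1, and 57 and 262 between the siRNAs, and it changed no call in the group. A block with the siNeg numbers crossed, added after the data were seen, gave 4563 and 4275, 4892 and 4061, and 153 and 523. In the window from 100 bases before to 50 after the start, the tandem GGAA pair was in 0.0% of the matched genes. CDKN2A, CDKN2B and CCND2 were left out by the filter on low values, and where a library is left out its partner is assumed to vary like the other groups.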
